A study of Mus musculus with 18 samples.

Results

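The calcineurin, Rcan and NFAT genes were followed in cultured mouse mammary fibroblasts across cell type and tumour medium. The group comprised 10 of the 55486 genes counted, picked by gene symbol: Ppp3ca, Ppp3cb and Ppp3cc, which encode the catalytic subunits of calcineurin, Ppp3r1, which encodes its calcium-binding regulatory subunit, the feedback regulators Rcan1 and Rcan2, and the transcription factors Nfatc1, Nfatc2, Nfatc3 and Nfatc4. All 10 were above the filter on low counts that left 14273 genes for testing. The members were chosen with earlier results of these data in view, in which the response of Ppp3ca to tumour medium differed between the cell types. Every value of Ppp3ca is therefore a description without a test, and counts of changed genes below run over the other 9.

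Normal fibroblasts (NFs) came from the mammary glands of female FVB/n mice aged 8 to 16 weeks, and several mice were pooled for each isolation. Cells negative for EpCAM, CD49f, CD45 and CD31 were sorted into CD26- NFs and CD26+ NFs, CD26 being the surface peptidase that Dpp4 encodes. Both were cultured for 7 days either in control conditioned medium (n = 3 per cell type) or in tumour conditioned medium (CM; n = 6 per cell type), and polyadenylated RNA was sequenced. Tumour CM was taken from 6 independent lines grown out of WEPtn tumours, a model of invasive lobular carcinoma (ILC) in which Wap-driven Cre acts in mammary epithelium. The lines were 13-MCB-17, 10-SJK-221, 18-MCB-12, 13-MCB-44, 13-MCB-90 and 13-MCB-138, and the CM of each was given to 1 CD26- and 1 CD26+ culture, so that the spread among CM libraries includes the spread among lines. The labels do not say that cultures of a group came from separate sorts, and p-values measure only the spread between these samples.

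Total counts ranged from 9725723 to 14585349 over the 18 libraries. All 10 fibroblast markers exceeded a mean of 1 CPM (CPM, counts scaled to a common library size) in each group. Dpp4 did not mark the sort in control medium, where it stayed at or below 0.171 CPM in CD26- and at or below 0.0809 CPM in CD26+ libraries. In tumour CM it lay between 0.0776 and 0.881 CPM in CD26- NFs and between 0.715 and 7.80 CPM in CD26+ NFs. The 10 epithelial markers, keratins, Epcam and Cdh1 among them, summed to 4702 to 5295 CPM in CD26- control, 2822 to 4848 CPM in CD26- CM, 684 to 1296 CPM in CD26+ control and 605 to 1508 CPM in CD26+ CM libraries, with no marker at 0. Of 10 skeletal muscle markers 8 were tested, and 7 of these were higher in CD26- NFs in CM than in control, beside 7.88% of all genes. Their sum went from between 52.8 and 83.4 CPM to between 57.0 and 162 CPM, while CD26+ libraries held 11.9 to 19.3 CPM in control medium and 7.16 to 19.5 CPM in CM. Fibroblast markers summed to 27091 to 29289 CPM in CD26- and 74842 to 88865 CPM in CD26+ control libraries, and to 17465 to 31378 CPM and 37367 to 62057 CPM in CM. Schwann and glial markers summed to 27.3 to 32.8 CPM and 4.73 to 9.27 CPM in control, and to 20.2 to 32.6 CPM and 4.96 to 9.57 CPM in CM libraries. Immune markers summed to at most 58.6 CPM and endothelial markers to at most 10.1 CPM in any library. Adipocyte markers summed to 15.0 to 17.0 CPM in CD26- control, 18.0 to 28.7 CPM in CD26- CM, 20.9 to 37.0 CPM in CD26+ control and 31.1 to 84.6 CPM in CD26+ CM libraries. All 3 that could be tested were higher in CD26+ NFs in both media, beside 25% of all genes in control medium and 29.3% in CM. Pericyte and smooth muscle markers summed to 210.1 to 228 CPM in CD26- control, 94.3 to 199.6 CPM in CD26- CM, 60.9 to 84.5 CPM in CD26+ control and 61.7 to 104 CPM in CD26+ CM libraries. The part of these lists in the cell type differences of the members was not tested, apart from the epithelial covariate given below. In bulk RNA, fewer cells of a type and less RNA per cell cannot be told apart.

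Calcineurin is a phosphatase that calcium and calmodulin switch on. It removes phosphates from the NFATc proteins, which then enter the nucleus and act on target genes, often with AP-1 proteins at the same site, while kinases such as GSK3, CK1 and DYRK send NFAT back to the cytoplasm. Rcan proteins bind calcineurin and modulate it. Rcan1 has several first exons, and transcription from an internal start is a known target of NFAT, so that its transcript is widely read as a sign of calcineurin activity. A gene count adds up transcripts from all starts and cannot separate them.

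Promoters are shown for Rcan1, Rcan2, Nfatc2 and Nfatc4, which had the largest shifts between media among the members with a matched window. Windows of 300 bases, from 250 before to 50 after an annotated start, were taken from RefSeq (GRCm38.p6, the build of the count table) and matched 7 of the 10 members by symbol. Ppp3ca, Ppp3cc and Nfatc1 had no match, although Nfatc1 shifted more between media than Nfatc4. Capitals mark the NFAT core GGAAA, printed as TTTCC where it lies on the other strand. The pair of Rcan1 windows set the upstream start against the internal one, and the others belong to Rcan2, Nfatc2 and Nfatc4. All are printed 5′ to 3′ on the strand of the gene.
Rcan1 upstream start (chr16:92466120-92466419, minus strand): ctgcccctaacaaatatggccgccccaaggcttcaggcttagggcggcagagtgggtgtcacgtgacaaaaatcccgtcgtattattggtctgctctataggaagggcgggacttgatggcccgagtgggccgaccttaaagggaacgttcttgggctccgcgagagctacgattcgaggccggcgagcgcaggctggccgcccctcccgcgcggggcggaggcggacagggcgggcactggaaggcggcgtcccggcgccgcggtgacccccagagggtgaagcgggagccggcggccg
Rcan1 internal start (chr16:92400029-92400328, minus strand): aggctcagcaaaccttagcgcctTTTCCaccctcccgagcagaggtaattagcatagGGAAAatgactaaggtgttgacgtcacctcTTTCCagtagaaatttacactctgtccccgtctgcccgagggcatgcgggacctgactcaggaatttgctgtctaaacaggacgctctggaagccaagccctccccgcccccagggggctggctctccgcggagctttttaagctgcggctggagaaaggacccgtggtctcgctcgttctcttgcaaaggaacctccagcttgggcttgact
Rcan2 (chr17:43801102-43801401, plus strand): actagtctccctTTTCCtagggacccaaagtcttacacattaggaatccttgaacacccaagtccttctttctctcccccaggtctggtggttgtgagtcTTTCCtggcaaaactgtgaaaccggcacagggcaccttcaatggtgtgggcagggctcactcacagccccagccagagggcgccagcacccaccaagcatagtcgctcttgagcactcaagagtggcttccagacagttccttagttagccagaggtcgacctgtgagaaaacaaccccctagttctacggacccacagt
Nfatc2 (chr2:168601608-168601907, minus strand): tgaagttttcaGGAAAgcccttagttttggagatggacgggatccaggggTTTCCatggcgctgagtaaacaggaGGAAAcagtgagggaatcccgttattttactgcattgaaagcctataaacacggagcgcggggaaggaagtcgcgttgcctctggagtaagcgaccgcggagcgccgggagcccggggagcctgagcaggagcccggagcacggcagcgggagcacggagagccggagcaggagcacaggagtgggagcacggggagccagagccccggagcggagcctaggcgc
Nfatc4 (chr14:55824545-55824844, plus strand): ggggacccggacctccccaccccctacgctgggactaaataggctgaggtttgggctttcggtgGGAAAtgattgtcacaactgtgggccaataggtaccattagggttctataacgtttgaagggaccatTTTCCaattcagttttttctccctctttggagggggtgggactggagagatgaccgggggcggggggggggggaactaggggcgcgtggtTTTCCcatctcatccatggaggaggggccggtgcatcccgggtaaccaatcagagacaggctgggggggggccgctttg

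The internal Rcan1 window held 3 NFAT cores, at -227, -193 and -163 from the start, and the upstream window held 0. The internal window also held 1 AP-1 motif (TGANTCA) at -110 and 1 cAMP-response motif (TGACGTCA) at -175, counted on both strands without overlap with the NFAT cores. The upstream window was richer in CpG, with 33 CpG pairs and 67.7% GC against 14 pairs and 56.3% GC. Nfatc4 and Nfatc2 had 3 cores each in the windows printed, and Rcan2 had 2. RefSeq gives further starts for some of these genes, and of the windows not printed the other one of Nfatc2 held 1 core and windows 2 and 3 of Rcan2 held 0, while Ppp3cb, which was not called in CM against control, held 4. Over all 32851 RefSeq windows of the same length, 61.3% held at least 1 NFAT core and 9.42% at least 3, while 7.81% held the AP-1 motif and 1.79% the cAMP-response motif. A match of letters is a description and not a binding site.

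The catalytic subunits were compared first. Ppp3ca (ENSMUSG00000028161, GRCm38 chr3:136670124-136937727) had CM effects of opposite sign in the 2 cell types. It stood at 75.7, 73.7 and 76.7 CPM in the CD26- control libraries and at 150.1, 161 and 142 CPM in the CD26+ control libraries. The CD26- CM libraries ran from 79.3 to 89.7 CPM (median 83.9), and the CD26+ CM libraries from 89.9 to 118 CPM (median 100.5). The 3 CD26+ control libraries lay above all others, and the CD26+ CM libraries lay between them and the CD26- NFs, the lowest just above the highest CD26- CM library. On the log2 scale the CM effect was 0.16 ± 0.07 (SE) in CD26- NFs and -0.58 ± 0.07 (SE) in CD26+ NFs, a difference of -0.74 ± 0.10 (SE). CD26+ NFs held 2.00 times the CD26- level in control medium and 1.20 times in CM. As a description, 0 of 6 CD26- CM libraries lay below the CD26- control mean and 6 of 6 CD26+ CM libraries lay below the CD26+ control mean. Within a cell type all lines were set against the same mean of 3 control libraries, so they are not independent of one another.

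**Figure D1:**
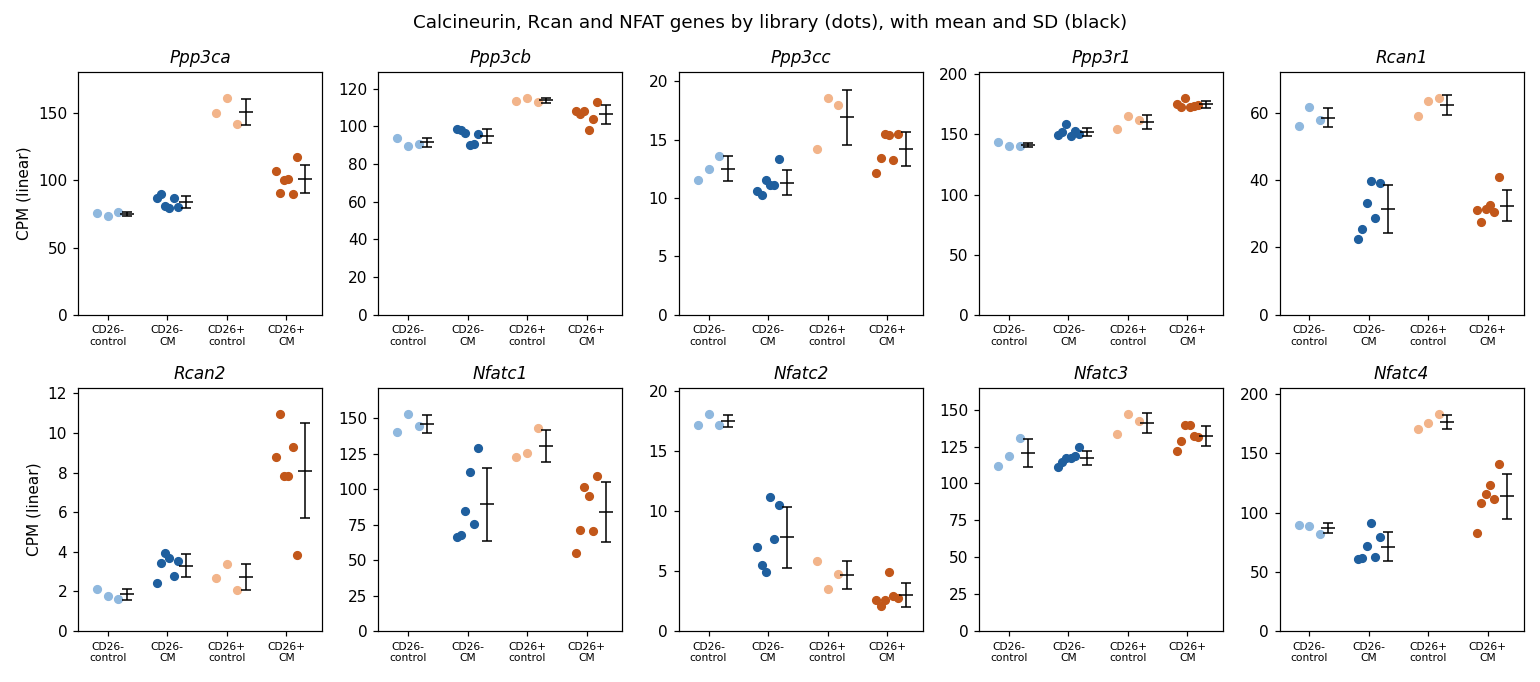
Level of each member in CPM (linear axis from 0) in every library (dots), with the group mean and SD in black, for CD26- and CD26+ NFs in control medium (n = 3 each) and tumour CM (n = 6 each). Ppp3ca and Nfatc4 were highest in CD26+ control libraries, Rcan1 and Nfatc1 were lower in CM in both cell types, and Rcan2 reached 11.0 CPM in CD26+ NFs in CM.

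Ppp3cb, the other widely expressed catalytic gene, changed less. Its 3 CD26- control libraries held 94.0, 89.5 and 90.8 CPM, and its 3 CD26+ control libraries 113, 115 and 113 CPM. CD26- CM libraries spanned 90.1 to 98.7 CPM (median 96.3) and CD26+ CM libraries 98.3 to 113 CPM (median 107). The control libraries of the 2 cell types did not overlap, and Ppp3cb was 0.32 ± 0.05 (SE) higher on the log2 scale in CD26+ NFs in control medium (edgeR FDR = 6.92e-05) and 0.16 ± 0.04 (SE) higher in CM (edgeR FDR = 0.00101). Neither CM effect passed the test, at 0.06 ± 0.05 (SE) in CD26- NFs and -0.10 ± 0.04 (SE) in CD26+ NFs (edgeR FDR = 0.434 and 0.112).

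Ppp3cc, the catalytic gene best known from testis, was the least abundant of the catalytic genes in CPM. Control libraries held 11.5, 12.5 and 13.6 CPM in CD26- NFs and 14.2, 18.6 and 18.0 CPM in CD26+ NFs. In CM the ranges were 10.2 to 13.4 CPM (median 11.1) and 12.1 to 15.5 CPM (median 14.4). It was 0.43 ± 0.12 (SE) higher in CD26+ NFs in control medium (edgeR FDR = 0.00682) and 0.33 ± 0.09 (SE) higher in CM (edgeR FDR = 0.00395), with log2 CM effects of -0.15 ± 0.11 (SE) and -0.26 ± 0.10 (SE) that did not pass (edgeR FDR = 0.371 and 0.0734). Of its exon length 3.05% is shared with a gene on the opposite strand, and the strand setting of the counting was not given in the sources used here.

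Levels of different genes were set side by side per kb of exon. The summed catalytic level was 22.1 ± 0.414 CPM per kb in CD26- control (SD, n = 3), 23.0 ± 0.640 in CD26- CM (SD, n = 6), 33.7 ± 1.52 in CD26+ control (SD, n = 3) and 27.0 ± 1.64 CPM per kb in CD26+ CM libraries (SD, n = 6). Ppp3ca supplied 34.1% ± 0.157, 36.6% ± 1.56, 44.9% ± 1.63 and 37.5% ± 1.92 of that sum in the same order, and Ppp3cb 46.9% ± 1.27, 46.9% ± 0.903, 38.3% ± 1.33 and 44.9% ± 1.95. Ppp3ca was thus the leading catalytic transcript per kb in CD26+ control NFs, whereas Ppp3cb led in the other 3 groups.

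The regulatory subunit gene Ppp3r1 varied least among libraries. It held 144, 140.6 and 140.4 CPM in CD26- control and 154, 165 and 162 CPM in CD26+ control libraries. CD26- CM libraries ranged from 148 to 158 CPM (median 151) and CD26+ CM libraries from 173 to 180.5 CPM (median 174), so that the latter lay above every other library. Ppp3r1 was 0.18 ± 0.04 (SE) higher on the log2 scale in CD26+ than in CD26- NFs in control medium (edgeR FDR = 0.00110) and 0.21 ± 0.03 (SE) higher in CM (edgeR FDR = 8.07e-06). Tumour CM raised it by 0.13 ± 0.04 (SE) in CD26+ NFs (edgeR FDR = 0.0124), a call that was lost without CD26+ control replicate 10 (FDR = 0.109). The value in CD26- NFs was 0.10 ± 0.04 (SE; edgeR FDR = 0.0572). Its level is uncertain because 14.3% of its exon length also belongs to Wdr92 on the same strand.

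Tumour CM lowered Rcan1 in both cell types and raised Rcan2 in CD26+ NFs. Rcan1 (ENSMUSG00000022951, chr16:92391953-92470867) held 56.1, 61.6 and 57.9 CPM in CD26- control libraries and 58.9, 63.4 and 64.4 CPM in CD26+ control libraries. The CM libraries ran from 22.4 to 39.6 CPM (median 31.1) in CD26- NFs and from 27.7 to 40.9 CPM (median 31.4) in CD26+ NFs. Each CM library therefore lay below each control library in both cell types. Rcan1 fell by 0.90 ± 0.14 (SE) on the log2 scale in CD26- NFs (edgeR FDR = 0.000713) and by 0.94 ± 0.14 (SE) in CD26+ NFs (edgeR FDR = 0.000110), and the difference of the 2 effects was -0.05 with a 95% interval from -0.48 to 0.38 (edgeR FDR = 0.916). Rcan1 did not pass the test between the cell types in control medium, at 0.09 ± 0.16 (SE; edgeR FDR = 0.681), or in CM, at 0.04 ± 0.12 (SE; edgeR FDR = 0.790).

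Rcan2 (ENSMUSG00000039601, chr17:43801351-44039516) was scarce, with 21 to 146 counts in a library. It held 2.13, 1.79 and 1.62 CPM in CD26- control and 2.67, 3.41 and 2.08 CPM in CD26+ control libraries. In CM it ranged from 2.40 to 3.95 CPM (median 3.49) in CD26- NFs and from 3.84 to 11.0 CPM (median 8.32) in CD26+ NFs. CM and control libraries did not overlap in either cell type, and the CD26+ CM libraries stood above all others except the library with CM of 13-MCB-138 (replicate 18), which at 3.84 CPM lay among the CD26- CM libraries. Tumour CM raised Rcan2 by 1.58 ± 0.26 (SE) in CD26+ NFs (edgeR FDR = 0.000232), and the value in CD26- NFs was 0.85 ± 0.29 (SE; edgeR FDR = 0.0561). The difference of these effects, 0.73 ± 0.39 (SE), did not pass (edgeR FDR = 0.260), but did without replicate 18 (0.91, edgeR FDR = 0.0429). In CM the CD26+ level was 1.30 ± 0.20 (SE) above the CD26- level (edgeR FDR = 2.05e-05), while in control medium the value was 0.57 ± 0.33 (SE; edgeR FDR = 0.168).

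Per kb of exon, the log2 ratio of Rcan1 to Rcan2 was 5.49 ± 0.238 in CD26- control (SD, n = 3), 3.75 ± 0.223 in CD26- CM (SD, n = 6), 5.05 ± 0.375 in CD26+ control (SD, n = 3) and 2.56 ± 0.712 in CD26+ CM libraries (SD, n = 6). The ratio was lower in every CM library than in any control library of its cell type, with ranges of 3.40 to 3.97 against 5.22 to 5.66 in CD26- NFs and of 1.84 to 3.92 against 4.72 to 5.46 in CD26+ NFs. Rcan1 remained the more abundant transcript in all 18 libraries.

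**Figure D2:**
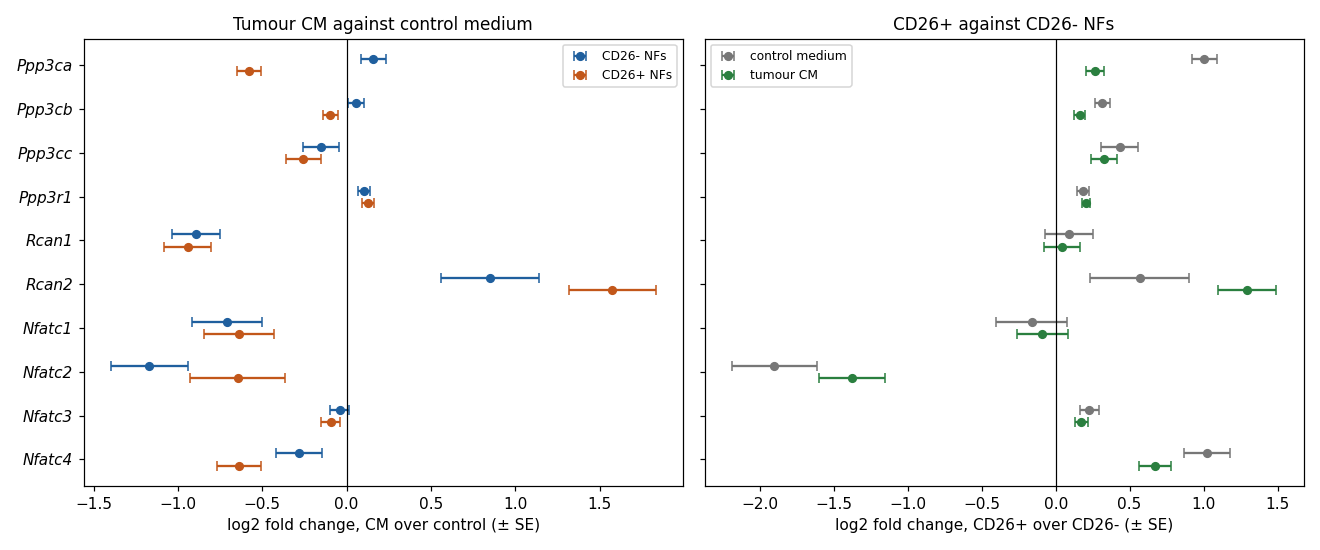
Log2 fold changes of the 10 members with their SE (bars), for tumour CM over control in CD26- and CD26+ NFs (left) and for CD26+ over CD26- NFs in control medium and CM (right). Rcan1 and Nfatc1 were shifted by similar amounts in both cell types, Ppp3ca was at 0.16 and -0.58, and Nfatc2 was below -1 in both cell type comparisons.

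The NFAT factors differed in how they responded. Nfatc1 (ENSMUSG00000033016, chr18:80606205-80713071) held 140.5, 153 and 144 CPM in CD26- control and 123, 125 and 143 CPM in CD26+ control libraries. In CM the levels spread from 66.5 to 129 CPM (median 80.1) in CD26- NFs and from 55.3 to 109 CPM (median 83.2) in CD26+ NFs, all below the control libraries of the same cell type. It fell by 0.71 ± 0.21 (SE) in CD26- NFs (edgeR FDR = 0.0270) and by 0.64 ± 0.21 (SE) in CD26+ NFs (edgeR FDR = 0.0271). Both calls sat close to the limit: leaving out 1 library at a time ended the first in 6 of 9 fits (edgeR FDR up to 0.0890) and the second in 4 of 9 (edgeR FDR up to 0.102). Between cell types it did not pass the test, at -0.16 ± 0.24 (SE) in control medium and -0.09 ± 0.17 (SE) in CM (edgeR FDR = 0.604 and 0.676), although a fit of the control libraries alone called Nfatc1, CD26+ against CD26- NFs in control medium, at -0.17 (edgeR FDR = 0.0377). With the epithelial mean as a covariate the CM effects were -0.61 ± 0.23 (SE) and -0.57 ± 0.22 (SE) and were not called (edgeR FDR = 0.149 and 0.0618).

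Nfatc2 (ENSMUSG00000027544, chr2:168476410-168601657), a factor best studied in T cells, was higher in CD26- NFs. Control libraries held 17.2, 18.1 and 17.2 CPM in CD26- NFs and 5.83, 3.48 and 4.75 CPM in CD26+ NFs. CM libraries ran from 4.90 to 11.2 CPM (median 7.36) and from 2.10 to 4.91 CPM (median 2.69). The CD26- control libraries stood apart from all the rest, and the CD26+ CM library with CM of 13-MCB-44 was the one that overlapped its controls. The log2 fold change of Nfatc2 in CD26+ over CD26- NFs was -1.90 ± 0.29 (SE) in control medium (edgeR FDR = 2.88e-05) and in CM it was -1.38 ± 0.22 (SE; edgeR FDR = 4.48e-05). Tumour CM lowered it in CD26- NFs, with -1.17 ± 0.23 (SE; edgeR FDR = 0.00292), and the value in CD26+ NFs was -0.65 ± 0.28 (SE; edgeR FDR = 0.0954; 0.0213 without CM replicate 16).

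Epithelial markers moved with Nfatc2. The mean log2 CPM of the epithelial list was 7.94, 7.68 and 7.84 in CD26- control, 6.83 to 7.70 in CD26- CM, 6.36, 5.68 and 6.05 in CD26+ control and 5.01 to 6.51 in CD26+ CM libraries. Among the CM libraries of each cell type, controls left aside, that of 13-MCB-44 had the highest epithelial mean and the highest Nfatc2 level. With that mean as a covariate the cell type difference of Nfatc2 shrank to -0.20 ± 0.31 (SE) in control medium (edgeR FDR = 0.812) and to 0.10 ± 0.26 (SE) in CM (edgeR FDR = 0.835), while the CM effect in CD26- NFs kept its call at -0.66 ± 0.15 (SE; edgeR FDR = 0.0182). Of 6 pericyte and smooth muscle markers tested, 2 were lower in CD26- NFs in CM than in control, beside 7.28% of all genes. In control medium 4 were lower and 1 higher in CD26+ than in CD26- NFs, beside 25.4% and 25% of all genes. In CM, where Nfatc2 was also lower, 2 were lower and 1 higher, beside 29.3% of all genes each way. The part of these markers in the result was not tested. The epithelial covariate runs nearly parallel to cell type, and the part of epithelial RNA in the Nfatc2 difference cannot be told apart from cell type.

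Nfatc3 (ENSMUSG00000031902, chr8:106058840-106130537), a broadly expressed factor, had the smallest CM effects among the NFAT genes. Of the exon length of Nfatc3, 1.87% is shared with Esrp2 on the opposite strand. Nfatc3 held 112, 119 and 131 CPM in CD26- control and 134, 147 and 142 CPM in CD26+ control libraries, with CM ranges of 111 to 125 CPM (median 117) and 122 to 139 CPM (median 132). It was 0.23 ± 0.06 (SE) higher in CD26+ NFs in control medium (edgeR FDR = 0.00620) and 0.17 ± 0.04 (SE) higher in CM (edgeR FDR = 0.00294). The log2 CM effects of -0.04 and -0.09 did not pass (edgeR FDR = 0.666 and 0.211), and their 95% intervals, -0.16 to 0.07 and -0.21 to 0.02, leave room for small changes only.

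Nfatc4 (ENSMUSG00000023411, chr14:55823144-55833943) was the NFAT gene with the largest excess in CD26+ NFs. It held 89.7, 88.9 and 81.9 CPM in CD26- control and 171, 176 and 183 CPM in CD26+ control libraries. CM libraries ranged from 60.8 to 91.0 CPM (median 67.5) in CD26- NFs and from 82.6 to 141 CPM (median 114) in CD26+ NFs. All CD26+ CM libraries lay below the CD26+ controls, whereas in CD26- NFs the library with CM of 13-MCB-44 lay above its controls and the other 5 below. The gene was 1.02 ± 0.16 (SE) higher on the log2 scale in CD26+ NFs in control medium (edgeR FDR = 3.16e-05) and 0.67 ± 0.11 (SE) higher in CM (edgeR FDR = 5.13e-05), and it kept both calls with the epithelial mean as a covariate (1.23 and 0.85, edgeR FDR = 0.00855 and 0.0182). Tumour CM lowered it in CD26+ NFs, at -0.64 ± 0.13 (SE; edgeR FDR = 0.00159), and the CD26- value was -0.28 ± 0.13 (SE; edgeR FDR = 0.164). The difference between these effects, -0.35 ± 0.19 (SE), did not pass in the fit by group (edgeR FDR = 0.261) and did with the CM line as a replicate block, which pairs the cultures given the same CM (-0.35 ± 0.09 SE, edgeR FDR = 0.0208).

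The makeup of the NFAT transcripts shifted with both cell type and medium. Their sum was 46.4 ± 1.13 CPM per kb in CD26- control (SD, n = 3), 35.0 ± 5.83 in CD26- CM (SD, n = 6), 60.3 ± 2.80 in CD26+ control (SD, n = 3) and 42.4 ± 6.44 CPM per kb in CD26+ CM libraries (SD, n = 6). Nfatc1 led in CD26- control NFs with 42.1% ± 0.828 of the sum (SD, n = 3) and Nfatc4 in CD26+ control NFs with 50.4% ± 0.529 (SD, n = 3). In CM the share of Nfatc3 was 29.1% ± 3.80 in CD26- and 27.0% ± 3.32 in CD26+ NFs (SD, n = 6 each), against 22.1% ± 1.73 and 20.0% ± 0.879 in control medium (SD, n = 3 each). Nfatc2 gave at most 3.59% in any library.

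**Figure D3:**
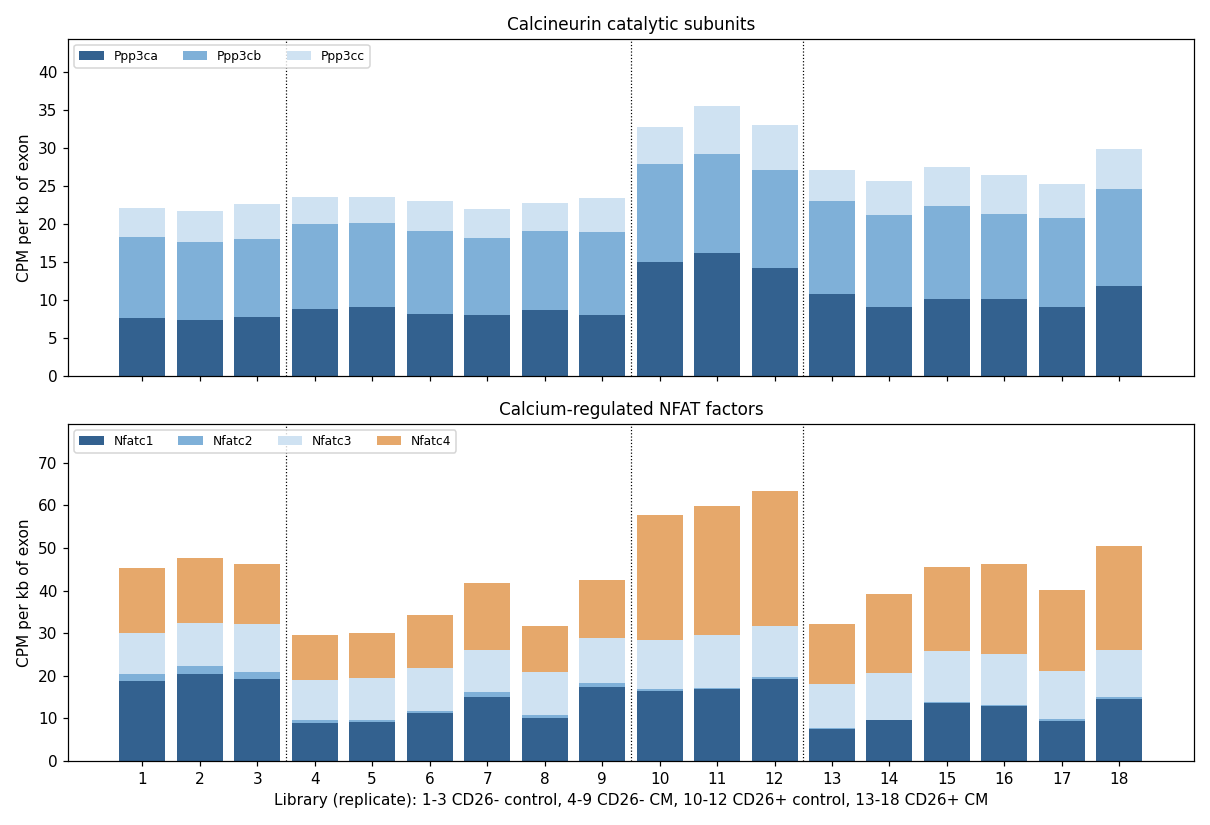
Stacked levels in CPM per kb of exon (linear axes from 0) of the catalytic subunit genes (top) and of the NFAT genes (bottom) in each of the 18 libraries, with dotted lines between the 4 groups. The catalytic sum was highest in the CD26+ control libraries (32.7 to 35.5 CPM per kb), and the NFAT sum was lower in CM than in control libraries of the same cell type.

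Counted over the 9 tested members, tumour CM raised 0 and lowered 3 by edgeR in CD26- NFs (Rcan1, Nfatc1 and Nfatc2), where 7.88% of all genes rose and 7.28% fell. At an unadjusted p under 0.05 there were 5 of the 9, and DESeq2 called the same 3 lower and 2 higher (Ppp3r1 and Rcan2). In CD26+ NFs it raised 2 (Ppp3r1 and Rcan2) and lowered 3 (Rcan1, Nfatc1 and Nfatc4), against 15.2% and 13.4% of all genes. The median log2 change over the 9 was -0.15 in CD26- and -0.26 in CD26+ NFs (-0.10 and -0.42 with Ppp3ca), beside medians within 0.01 of 0 over all genes. CD26+ NFs exceeded CD26- NFs in control medium in 5 of 9 (Ppp3cb, Ppp3cc, Ppp3r1, Nfatc3 and Nfatc4) and were below them in 1 (Nfatc2), with 25% of all genes above and 25.4% below. In CM the counts were 6, with Rcan2 added, and 1, with 29.3% and 29.3% of all genes. With the epithelial mean as a covariate only Nfatc4 kept its call in each of these cell type comparisons, while the SE rose. Log2 fold changes stayed similar for Nfatc3 (0.25 ± 0.12 SE in control medium and 0.19 ± 0.10 SE in CM), Ppp3cc (0.38 ± 0.23 SE and 0.29 ± 0.19 SE) and Rcan2 in CM (1.08 ± 0.40 SE), and were smaller for Ppp3cb (0.17 ± 0.09 SE and 0.03 ± 0.07 SE), Ppp3r1 (0.11 ± 0.07 SE and 0.14 ± 0.06 SE) and Nfatc2. The comparison of the 2 CM effects called 0 of 9 members by edgeR in the fit by group and 0 by DESeq2, with 1 at an unadjusted p under 0.05 (Ppp3cb, log2 difference -0.15, edgeR FDR = 0.138) and 4.53% of all genes positive and 3.01% negative past the FDR. With the CM line as a replicate block edgeR called 1, Nfatc4. Because the members were chosen with that comparison in view, nothing is read from its background.

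The CM of the 6 lines was compared over the 12 CM libraries with cell type as a term. Nfatc1 and Nfatc4 differed among lines, 2 of 9 members against 6.56% of all genes tested. The fitted Nfatc1 levels spanned 0.96 on the log2 scale between lines (edgeR FDR = 0.00986). Nfatc1 was lowest with CM of 13-MCB-17, at 66.5 CPM in CD26- and 55.3 CPM in CD26+ NFs, and highest with CM of 13-MCB-138, at 129 and 109 CPM. Nfatc4 spanned 0.59 (edgeR FDR = 0.0447), with 60.8 and 82.6 CPM for 13-MCB-17, and its call was lost in 10 of 12 fits that left out 1 library (edgeR FDR up to 0.106). Nfatc2 spanned 1.10 (edgeR FDR = 0.0542) and Rcan1 0.58 (edgeR FDR = 0.112). In both cell types the CM of 13-MCB-17, 10-SJK-221 and 13-MCB-90 gave the 3 lowest levels of Rcan1, Nfatc1 and Nfatc4 alike.

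**Figure D4:**
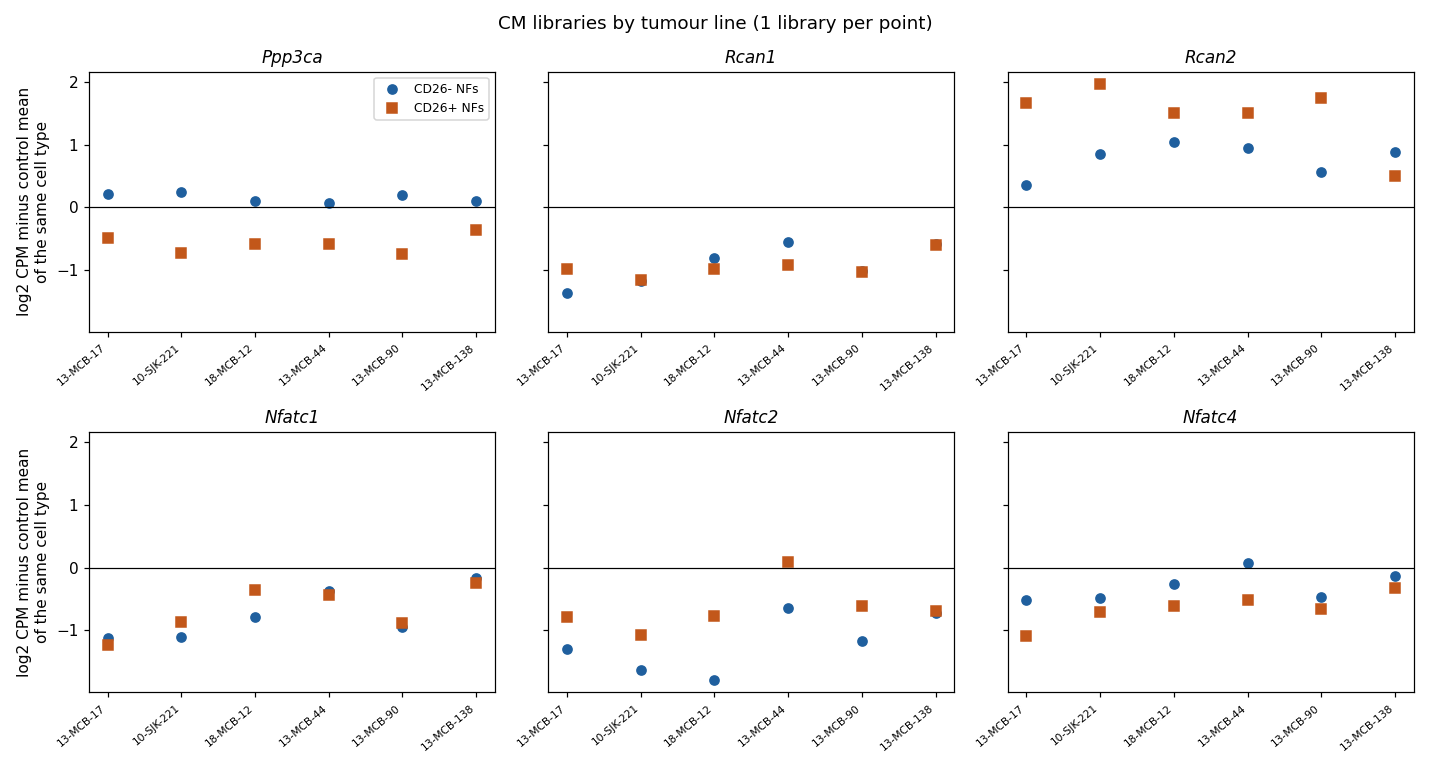
Log2 CPM of 6 members in each CM library minus the control mean of the same cell type, by tumour line, with 1 CD26- library (circle) and 1 CD26+ library (square) per line. Ppp3ca lay above 0 in all CD26- and below 0 in all CD26+ libraries, Nfatc1 and Rcan1 lay below 0 in all 12, and Rcan2 was above 0 in all 12, with the lowest CD26+ value at 13-MCB-138 (0.50).

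Within pairs of cultures given CM of the same line, CD26+ NFs were the higher in 6 of 6 lines for Ppp3ca, Ppp3cb, Ppp3cc, Ppp3r1, Rcan2, Nfatc3 and Nfatc4, and in 0 of 6 for Nfatc2. The order varied for Rcan1, which was higher in CD26+ NFs in 4 lines, and for Nfatc1, in 2 lines. The log2 gap between cell types ranged from 0.01 to 0.55 for Ppp3ca, and it was smallest with CM of 10-SJK-221 (89.7 and 90.4 CPM) and widest with CM of 13-MCB-138 (80.4 and 118 CPM). For Rcan2 the same lines gave 3.44 and 11.0 CPM and 3.54 and 3.84 CPM.

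The rest of the pathway was described from lists of genes chosen for their roles. Among 13 genes of calcium entry and release, tumour CM changed 2 in CD26- NFs, both lower (the channel gene Trpc1 at -0.50 ± 0.16 SE, edgeR FDR = 0.0414, and the calcium sensor Stim2 at -0.24 ± 0.08 SE, edgeR FDR = 0.0438). In CD26+ NFs 3 rose and 2 fell, with the store-operated channel gene Orai2 at 0.70 ± 0.10 (SE; edgeR FDR = 6.92e-05) and Stim2 at -0.36 ± 0.08 (SE; edgeR FDR = 0.00180). Over all genes, CM raised 7.88% and lowered 7.28% in CD26- NFs, and raised 15.2% and lowered 13.4% in CD26+ NFs, so that the 2 of 13 lowered in CD26+ NFs are near the background. The CM effect on Orai2 differed between the cell types by 0.58 ± 0.14 (SE; edgeR FDR = 0.0190). CD26+ NFs had 3 of the 13 higher and 5 lower in control medium, among them the inositol trisphosphate receptor gene Itpr3 at -1.39 ± 0.15 (SE; edgeR FDR = 9.89e-07) and the phospholipase gene Plcg2 at -1.73 ± 0.26 (SE; edgeR FDR = 2.32e-05), and 5 higher and 5 lower in CM, where the shares over all genes were 25% and 25.4% in control medium and 29.3% each in CM. Medians of the list stayed between -0.07 and 0.17 in these 4 comparisons, with medians over all genes of 0.01 or nearer to 0.

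Calmodulin carries calcium to calcineurin, and Calm2 and Calm3 are among its genes. The log2 fold change of Calm2 in CD26+ over CD26- NFs in control medium was -0.30 ± 0.05 (SE; edgeR FDR = 3.75e-05). Tumour CM lowered Calm2 in CD26- NFs (-0.16 ± 0.04 SE, edgeR FDR = 0.0127) and raised Calm3 there (0.12 ± 0.04 SE, edgeR FDR = 0.0494). Genes of other proteins linked to calcineurin in a broad sense made a further list. In CD26+ NFs, of 9 tested genes 6 were lower in control medium and 7 in CM and the others were not called (25.4% and 29.3% of all genes were lower), with list medians of -0.33 and -0.34. They included Rcan3, the remaining Rcan gene, at -0.78 ± 0.09 (SE; edgeR FDR = 1.30e-06) in control medium and -0.56 ± 0.06 (SE; edgeR FDR = 5.63e-07) in CM, and the anchoring protein gene Akap5 at -3.79 ± 0.56 (SE; edgeR FDR = 2.39e-05) in control medium. The epithelial markers were lower in the same comparisons, 8 of 10 in each, and their part in these differences was not tested for the list. Rcan3 was not called in CM against control, at -0.19 ± 0.07 (SE) in CD26- and 0.03 ± 0.08 (SE) in CD26+ NFs (edgeR FDR = 0.0905 and 0.828).

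Of 9 genes for the kinases and export factor that return NFAT to the cytoplasm, CM changed 0 in CD26- NFs by edgeR and by DESeq2 (3 at an unadjusted p under 0.05) and lowered 2 in CD26+ NFs, the export receptor gene Xpo1 (-0.22 ± 0.07 SE, edgeR FDR = 0.0313) and Gsk3a (-0.15 ± 0.05 SE, edgeR FDR = 0.0435), where 7.28% and 13.4% of all genes were lowered. Between cell types in control medium 1 of the 9 was higher and 3 were lower in CD26+ NFs, beside 25% and 25.4% of all genes. Dyrk2 was the higher (0.46 ± 0.08 SE, edgeR FDR = 7.39e-05), and the casein kinase gene Csnk1e was among the lower (-0.74 ± 0.08 SE, edgeR FDR = 4.88e-07). In CM 3 were higher and 4 lower, beside 29.3% of all genes each way. Among 9 genes for other factors listed beside NFATc, which are mainly known calcineurin substrates and also hold the osmotic-stress factor Nfat5, CD26+ NFs had 3 higher and 1 lower in control medium and 5 higher in CM, against 25% and 25.4% of all genes in control medium and 29.3% in CM. Crtc1, a coactivator of CREB, was 0.78 ± 0.10 (SE) higher in control medium (edgeR FDR = 3.41e-06) and 0.51 ± 0.07 (SE) higher in CM (edgeR FDR = 4.86e-06).

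The list of reported NFAT targets outside the members had 9 tested genes, of which CM changed 0 in CD26- NFs by edgeR and by DESeq2, with 4 at an unadjusted p under 0.05. Beside them Rcan1 fell in both cell types, and in CD26+ NFs CM raised 3 of the list and lowered 1, with the list median at 0.26, beside 15.2% and 13.4% of all genes. Vegfa, the angiogenic factor, held 218 ± 16.4 CPM in CD26+ control (SD, n = 3) and 540.4 ± 117 CPM in CD26+ CM libraries (SD, n = 6; log2 change 1.30 ± 0.14 SE, edgeR FDR = 4.64e-06), and the difference of its CM effect between cell types was 0.96 ± 0.19 (SE; edgeR FDR = 0.00656). Ptgs2, which encodes cyclooxygenase 2, rose by 0.87 ± 0.16 (SE) in CD26+ NFs (edgeR FDR = 0.000546) but was far lower there than in CD26- NFs in control medium (-2.30 ± 0.18 SE, edgeR FDR = 3.70e-08). Tnfsf11, the gene of the osteoclast factor RANKL, was higher in CD26+ NFs by 3.11 ± 0.62 (SE; edgeR FDR = 0.000408) in control medium. It was the 1 target of the 9 that was higher there, while 3 were lower, beside 25% and 25.4% of all genes. In CM 3 were higher and 3 lower, beside 29.3% of all genes each way. Among 7 AP-1 genes CM raised Fosl1 in CD26- NFs (0.72 ± 0.20 SE, edgeR FDR = 0.0230) and Jun in CD26+ NFs (0.91 ± 0.18 SE, edgeR FDR = 0.00117), beside 7.88% and 15.2% of all genes raised. In control medium 2 of the 7 were higher and 3 lower in CD26+ NFs, where the shares over all genes were 25% and 25.4%. The pair with the smallest p, Fos and Fosb, were among the lower (-1.26 and -1.62, edgeR FDR = 0.000159 and 3.81e-05).

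The genes with patterns most like 2 of the members were found by Pearson correlation of log2 CPM over the 18 libraries, which share the 4 groups. For Ppp3ca these were Tra2b (r = 0.961), Nt5dc2 (r = 0.959), Slc27a6 (r = 0.957), Sting1 (r = 0.956) and Psd4 (r = 0.948), and over deviations from the group means r was 0.846 for Tra2b and between 0.562 and 0.727 for the others. For Rcan1 they were Atp10d (r = 0.968), Smoc2 (r = 0.962), Tmeff2 (r = 0.952), Fam91a1 (r = 0.949) and Parp8 (r = 0.947), with r between 0.771 and 0.878 within groups. These coefficients describe the libraries and carry no test.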

How the data were processed

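RNA of 18 cultures was prepared with a stranded polyA kit and sequenced single-end. The authors deposited raw counts per Ensembl gene, without normalization. HISAT2 2.1.0, HTSeq and GRCm38 stand in the submitters' processing notes, and the annotation release and strand setting are not given in the sources used here. The table has 1 row without a gene, holding 0 counts, which was left out.

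Genes were kept by filterByExpr and counts scaled by TMM. CPM refer to the scaled library. edgeR 4.0.16 in R 4.3.3 fitted 1 quasi-likelihood model with a term per group (common biological coefficient of variation 0.117), and a second model over the 12 CM libraries with cell type and line. The authors used DESeq2, run here (1.42.0) as an alternative. FDR is the Benjamini-Hochberg adjusted p over all genes tested, with calls made under 0.05. Values per kb divide by the merged exon length of the annotation. The steps were tested on simulated data.

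The members and lists were chosen with earlier results of these data known. All members are named, with the 5 genes nearest in pattern to Ppp3ca and to Rcan1. From each list at most 2 genes per comparison are named, those with the smallest p among genes past the FDR with a group mean of at least 5 CPM; Rcan3 in CM against control was named after its values were seen. Residuals from the group means correlated between cultures given the same CM, with r from 0.247 to 0.406 in all 6 lines, so that the line pairs them and served as a replicate block. No library was a copy of another: chi-square over its degrees of freedom was at least 3.10 for every pair of replicates. Intervals are 95%. Some items are not reported here.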

Additional observations from a re-analysis of the deposited data

Results flagged for a closer look

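Of 20 sets of 6 CM libraries examined, 1 per member and cell type, 2 held a library set apart from the others by more than Dixon's 95% limit, and chance marks about 1 in 20. Gaps and ranges were taken on log2 CPM, and the linear scale was not tested. In CD26+ NFs in CM, Rcan2 was low in replicate 18 (CM of 13-MCB-138) at 3.84 CPM, with a gap of 0.679 of the log2 range. In the same group, Ppp3r1 was high in replicate 15 (CM of 18-MCB-12) at 180.5 CPM, with a gap of 0.666 of the log2 range. The limit is 0.625 for 6 samples.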

How the results depend on the processing

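Requiring the study's log2 limit of 2 beside the FDR left 0 members in each of the 2 CM effects and each of the 2 cell type comparisons, since no tested member exceeded it. With the epithelial mean as a covariate the members called fell from 6 to 1 in control medium and from 7 to 1 in CM, and Nfatc2 reversed in CM to 0.10 on the log2 scale; the folds of Nfatc3 (0.25 and 0.19), Ppp3cc (0.38 and 0.29) and Rcan2 in CM (1.08) stayed similar with a larger SE. The same covariate was added to the CM effects after seeing the data and left 2 of 3 calls in CD26- NFs, where Nfatc1 was lost at a similar fold (-0.61, edgeR FDR = 0.149), and 4 of 5 in CD26+ NFs, where Nfatc1 was lost likewise (-0.57, edgeR FDR = 0.0618) and Ppp3cb gained a call (edgeR FDR = 0.0380). DESeq2 called 5 in CD26- NFs and 4 among lines (Rcan1 and Nfatc2 added), and without a filter on low counts 4 differed among lines. The replicate block by CM line called 1 member for the difference of CM effects, Nfatc4, and changed no other call. Leaving out 1 library at a time gave 2 to 5 members called for the CM effect in CD26- NFs (5 without CD26- CM replicate 7), 4 to 7 in CD26+ NFs, 6 in control medium, 7 in tumour CM, 0 to 1 for the difference (1 without CD26+ CM replicate 18) and 1 to 3 among lines. Rcan1 kept both CM calls in every fit without 1 library (edgeR FDR up to 0.00670 and 0.00112). Without a filter on low counts Ppp3r1, CM effect in CD26+ NFs, lost its call (edgeR FDR = 0.120), as did Nfatc4, differences among the CM of 6 lines, with upper-quartile scaling (edgeR FDR = 0.0542). Over all 18 libraries Rcan2 was below the minimum mean of 5 CPM and has no value there for the group comparisons. The cause of these changes was not tested. Counted over each member, comparison and alternative setting, 25 values gained a call, 56 lost one and 1030 stayed the same. The 56 include every call removed by the log2 limit of 2. Depth limits Rcan2 and Nfatc2, with as few as 21 and 28 counts in a library.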
